A study of Homo sapiens with 2 samples.

Results

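Cyclins, cyclin-dependent kinases (CDKs), CDK inhibitors and pocket proteins were followed in C4-2B cells, a bone-metastatic, androgen-independent prostate cancer line that models castration-resistant disease and descends from LNCaP cells. The members were 52 genes picked by symbol, of 47236 named genes in the tables, and all 52 were found. They comprised 29 cell cycle genes, 13 genes of transcriptional CDK complexes and 10 other cyclins and CDKs. Cells received 2.5 µM MA4-022-1, which the labels call an inhibitor of BET bromodomain proteins and of kinases, or DMSO as vehicle. How long the cells were exposed is not stated in the labels, and all cells were of this 1 line. Each group held 1 library of total RNA depleted of ribosomal RNA, so differences could not be checked against replicates and were not tested. The stated aim was to find genes needed for growth of castration-resistant prostate cancer that the compound could be used against.

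A CDK is inactive until a cyclin binds it, and the pair is then tuned by activating and inhibitory phosphates and by small inhibitor proteins. In G1, D-type cyclins with CDK4 or CDK6 and then E-type cyclins with CDK2 phosphorylate the pocket proteins RB1, RBL1 and RBL2, which releases E2F factors. Cyclin A and B with CDK1 carry the cell through G2 into mitosis. Other members of both families have roles in transcription: CDK7, CDK8, CDK11, CDK12, CDK13 and CDK19 act on RNA polymerase II, Mediator or splicing. CDK7 is also the CDK-activating kinase, which places the activating phosphates. In prostate cancer, loss of RB1 is known to act on the G1 part of this pathway.

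Values were RPKM, read numbers scaled to transcript length and library size, so levels of different genes can be compared. Each difference is the log2 of (RPKM + 1) with MA4-022-1 divided by (RPKM + 1) in vehicle; this understates the change of low genes, and folds are on that scale. A gene was called higher or lower at a 2-fold difference. Low values moved in whole steps of 1 read, which placed the normalising totals at 20060000 reads for MA4-022-1 and 26840000 for vehicle. Intervals are exact binomial 95% counting intervals of the log2 ratio and cover counting error only. The prostate markers were present, with TMPRSS2, a protease of the prostate lumen, at 310 RPKM with MA4-022-1 and 251 RPKM in vehicle. All 10 prostate markers passed 1 RPKM in at least 1 library, with KLK2 and KLK3 read only in a row that joins them. The 8 with rows of their own stayed within 2-fold. Their ratios ran from HOXB13, at 31.7 against 54.8 RPKM, to STEAP2, at 419 against 240 RPKM. Of 11 markers of leukocytes, vessels, fibroblasts, basal and muscle cells, PECAM1, KRT5 and DES were listed at 0 in both libraries, 8 lay below 1 RPKM in both, and CD68 had no row of its own. The 10 with own rows summed to 7.65 RPKM with MA4-022-1 and 1.85 RPKM in vehicle, most of it COL1A1, at 5.03 against 1.19 RPKM. COL1A1 and MYH11, the latter at 1.22 against 0.0970 RPKM, were both at least 2-fold higher with MA4-022-1. The part of these markers in the results was not tested.

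The sequences shown first are promoter stretches of members whose levels are described below. They run 5′ to 3′ and end 1 base before a transcription start annotated by RefSeq on GRCh38.p14, and positions are counted back from that start. Capitals mark 4 motifs, searched on both strands: TTTGAA, the cell cycle homology region (CHR) bound by DREAM and MYB-MuvB complexes; CCAAT, bound by NF-Y; the E2F sites TTTCCCGC, TTTCGCGC, TTTGCCGC and TTTGGCGC; and CACGTG, the E-box bound by MYC and MAX. The E-box was added to the search after the CDK4 stretch had been read. The first group shows 8 of the 10 cell cycle members with windows that were at least 2-fold lower with MA4-022-1, the G2 and mitosis genes before the G1 and S genes. CCNA2 and CDKN2C are not shown, nor is CDK19, a transcriptional member that was also at least 2-fold lower. For genes with several annotated starts the start with the most motif matches in the stretch was taken, the second of 2 starts for CDK1 and the fourth of 4 for CDC25C.
CCNB2 (chr15:59105016-59105145, plus strand): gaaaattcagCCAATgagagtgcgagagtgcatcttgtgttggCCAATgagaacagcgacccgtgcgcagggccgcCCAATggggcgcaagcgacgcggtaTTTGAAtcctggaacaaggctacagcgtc
CDK1 (chr10:60778348-60778477, plus strand): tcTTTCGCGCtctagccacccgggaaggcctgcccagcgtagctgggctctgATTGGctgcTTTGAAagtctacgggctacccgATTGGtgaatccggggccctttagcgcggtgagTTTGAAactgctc
CKS1B (chr1:154974551-154974680, plus strand): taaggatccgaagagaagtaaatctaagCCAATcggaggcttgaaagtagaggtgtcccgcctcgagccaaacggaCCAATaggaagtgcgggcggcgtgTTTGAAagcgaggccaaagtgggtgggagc
CCNB1 (chr5:69167020-69167149, plus strand): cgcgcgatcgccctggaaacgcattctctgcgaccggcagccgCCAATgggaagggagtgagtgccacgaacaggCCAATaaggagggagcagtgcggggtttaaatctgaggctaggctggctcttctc
CDC25C (chr5:138331805-138331934, minus strand): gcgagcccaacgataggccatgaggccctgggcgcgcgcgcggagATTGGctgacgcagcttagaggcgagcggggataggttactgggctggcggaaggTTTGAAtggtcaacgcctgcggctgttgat
CDC25A (chr3:48188418-48188547, minus strand): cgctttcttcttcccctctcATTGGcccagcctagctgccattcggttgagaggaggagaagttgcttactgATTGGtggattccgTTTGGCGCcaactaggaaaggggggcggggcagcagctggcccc
RBL1 (chr20:37095998-37096127, minus strand): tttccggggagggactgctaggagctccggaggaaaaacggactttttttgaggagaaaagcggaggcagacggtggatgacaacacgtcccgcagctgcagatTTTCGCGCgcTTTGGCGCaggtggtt
CDK4 (chr12:57752311-57752540, minus strand): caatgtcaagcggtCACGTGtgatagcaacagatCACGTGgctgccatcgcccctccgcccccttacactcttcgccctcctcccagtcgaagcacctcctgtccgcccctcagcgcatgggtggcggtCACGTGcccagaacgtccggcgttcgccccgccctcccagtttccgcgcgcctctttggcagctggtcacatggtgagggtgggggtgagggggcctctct
The second group shows cell cycle members that carried the same motifs and stayed within 2-fold.
CKS2 (chr9:89311065-89311194, plus strand): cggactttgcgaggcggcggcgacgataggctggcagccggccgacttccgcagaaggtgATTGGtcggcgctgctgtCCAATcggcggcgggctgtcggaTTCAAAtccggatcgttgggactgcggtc
CCNF (chr16:2429317-2429446, plus strand): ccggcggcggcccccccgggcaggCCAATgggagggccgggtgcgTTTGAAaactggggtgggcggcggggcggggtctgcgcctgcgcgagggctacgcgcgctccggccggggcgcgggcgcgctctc

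In CCNB2, 3 CCAAT boxes followed each other at spacings of 33 bases, and a CHR began 25 bases after the last one, at -29. CKS1B carried a CHR at -30 that began 24 bases after a CCAAT box, and CDC25C one at -30 with a CCAAT box on the reverse strand at -85. CDK1 held 2 reverse CCAAT boxes, 2 CHRs and an E2F site in the stretch shown. CCNB1 held 2 CCAAT boxes 32 bases apart with no CHR as spelt here, and an E-box at -196, upstream of its stretch. CDC25A had an E2F site 14 bases after a reverse CCAAT box, and RBL1 had 2 E2F sites 10 bases apart. CDK4 had 3 E-boxes, at -216, -196 and -101, and none of the other motifs in its stretch. CCNA2 had 1 reverse CCAAT box, at -56, and none of the other motifs in its window. CDKN2C had no CHR in any of its windows. It had an E-box at -220 of 1 start, and at another start an E-box at -69 and a CCAAT box at -95. CDK19 had a CHR at -226, CCAAT boxes at -162, -155 and -80, and a reverse E2F site at -145. The arrangement alone did not separate the groups: CKS2, within 2-fold, had a reverse-strand CHR at -29, 23 bases after a CCAAT box, and CCNF a CHR at -85.

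**Figure D1:**
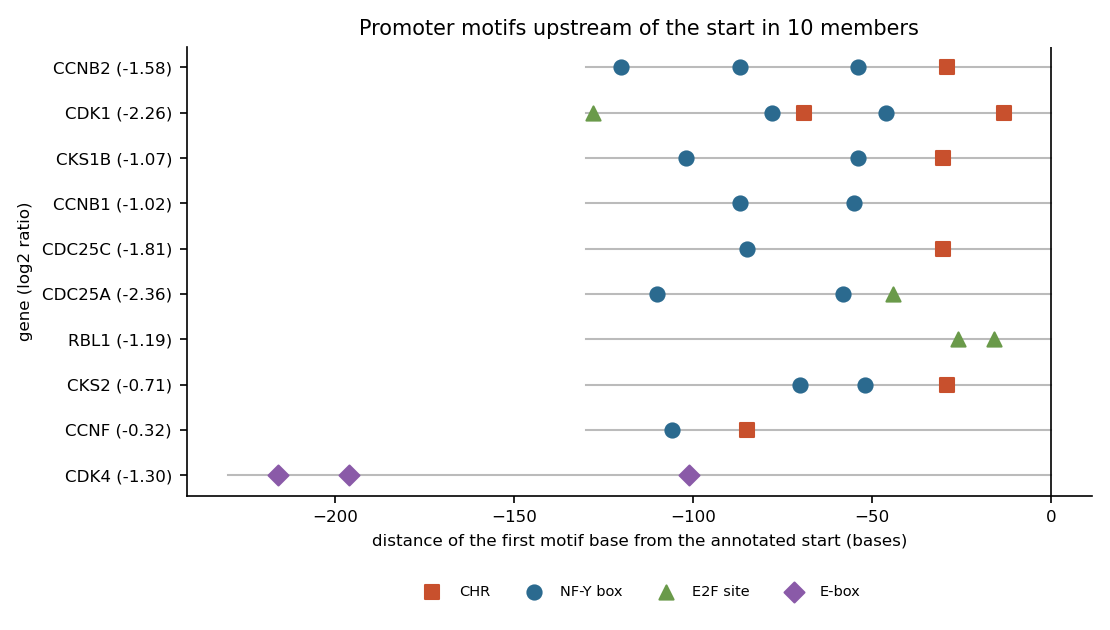
Positions of 4 promoter motifs in the stretches shown, as the distance in bases of the first motif base from the annotated start (x axis), for 10 members with their log2 ratio in brackets (y axis). Grey lines mark the stretch shown, 130 bases long or, for CDK4, 230 bases. The search reached 250 bases upstream, and matches beyond a stretch, such as an E-box of CCNB1 at -196, are not drawn. Within the stretches, CHRs lie close to the start in CCNB2, CKS1B, CDC25C, CDK1 and CKS2. The 3 E-boxes of CDK4 lie farther upstream in its longer stretch.

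Promoter windows of 300 bases, 250 before and 50 after each annotated start, were at hand for 47 of the 52 members with 72 starts. Of 16 starts of the 10 matched cell cycle members that were at least 2-fold lower, 6 held a CHR and 10 a CCAAT box, or 37.5% and 62.5%. Counted by gene, a CHR was found in 4 of these 10 members and in 4 of the 14 other cell cycle members, and a CCAAT box in 8 and 8, so the share per start is raised by CDK1 and CDC25C, each with a CHR at 2 starts. Over all 35116 starts the shares were 15.2% and 34.6%. The 22 starts of the other cell cycle members held 18.2% and 45.5%, and the 34 starts of transcriptional and other members 8.82% and 29.4%. An E2F site was present at 4 of the 16 starts, 0 of the 22 and 3 of the 34, against 3.31% of all starts. Counted by gene, it was found in 3 of the 10, 0 of the 14 and 3 of the 23 members, with CDK1 holding it at 2 starts. E-boxes stood at 4 of the 16, 1 of the 22 and 4 of the 34, against 7.26% of all starts. By gene they were found in 3 of the 10, 1 of the 14 and 3 of the 23 members. Those 3 of the 10 were CCNB1, CDKN2C, at 2 starts, and CDK4. The CDK4 stretch had been read before the E-box was added, so the share of the 16 is not independent of that choice. Windows of one gene can overlap, and a match is a description of letters.

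Among cell cycle members CDC25A, CCNA2 and CDK1 had the lowest ratios, 5.13-fold, 4.91-fold and 4.80-fold lower with MA4-022-1. Of the 20 transcriptional and other members with a row of their own, 19 stayed within 2-fold of their vehicle levels; MNAT1, CDK11A and CDK14 were read only in rows joined with other genes. Of the 29 cell cycle members, 12 were at least 2-fold lower, 16 were within 2-fold and 1, CDKN2B, was at least 2-fold higher. Among 15440 expressed genes, those with at least 1 RPKM in a library, 9.57% were at least 2-fold lower and 7.73% higher. Among 9842 expressed protein-coding symbols the shares were 9.50% and 4.12%. By sign alone, 25 of the 29 had a log2 ratio below 0, as did 55.8% of protein-coding symbols. The transcriptional or other member past 2-fold was CDK19, which was lower. The median log2 ratio was -0.71 over the 27 cell cycle members that passed the filter of 1 RPKM, 0.07 over the 13 transcriptional members and -0.15 over the 10 others, beside -0.10 over protein-coding symbols. CCND2 and CDKN1C did not pass that filter. CDC25A and CDK18 passed it through the vehicle library alone and CDKN2B through the MA4-022-1 library alone. In RNA of a whole culture, fewer cells in a phase of the cycle and less of these RNAs per cell cannot be told apart.

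**Figure D2:**
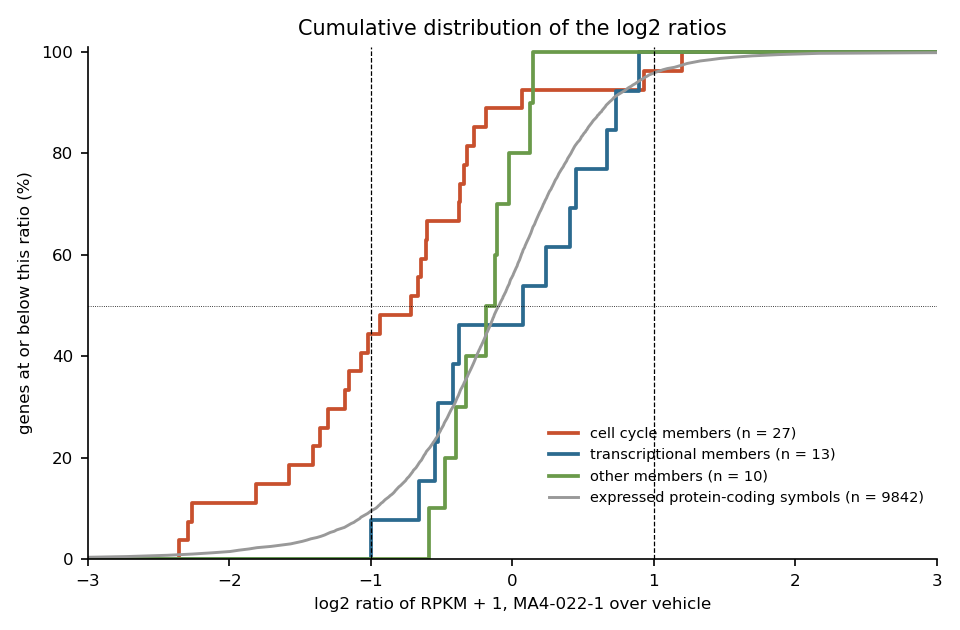
Cumulative share of genes (y axis, %) at or below each log2 ratio of MA4-022-1 over vehicle (x axis), for the members that passed the filter in 3 classes and for 9842 expressed protein-coding symbols. Members read in joined rows are included. The cell cycle curve lies left of the others over most of its range, with a median of -0.71, and the transcriptional and other members stay near the grey curve. Dashed lines mark 2-fold.

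D-type cyclins, which carry growth signals to CDK4 and CDK6, differed little. CCND1, cyclin D1, stood at 66.8 RPKM with MA4-022-1 and 86.9 RPKM in vehicle, a log2 ratio of -0.38 with an interval from -0.44 to -0.31. CCND3 was at 14.9 against 19.2 RPKM, and CCND2 was near 0, at 0.0560 RPKM or an estimated 7 reads against 0.0176 RPKM or 3 reads. Cyclin D1 thus made up 81.7% of the summed D-type level with MA4-022-1 and 81.9% in vehicle. Their kinase CDK4 was 2.47-fold lower, at 87.1 RPKM against 216 RPKM, with a log2 ratio of -1.30 and an interval from -1.37 to -1.24. The deposited hg19 locus was chromosome 12, 58117572 to 58154190. CDK6, the other kinase of D-type cyclins, was low in both libraries at 1.68 against 2.23 RPKM. CDK4 was therefore 51.7 times as abundant as CDK6 with MA4-022-1 and 96.9 times in vehicle, so at the RNA level CDK4 made up nearly all of this kinase pair in both libraries.

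Of the E-type cyclins and CDK2, which act at the start of S phase, CCNE2 and CDK2 were at least 2-fold lower. CCNE2 stood at 8.85 RPKM with MA4-022-1 and 25.2 RPKM in vehicle, 2.66-fold lower. CCNE1 was at 6.70 against 11.3 RPKM, a log2 ratio of -0.67 that stayed within 2-fold. The share of CCNE2 in the summed E-type level was 56.9% with MA4-022-1 and 69.1% in vehicle. CDK2 stood at 15.7 against 41.8 RPKM, 2.57-fold lower with an interval of the log2 ratio from -1.51 to -1.21. In this step both the kinase and one of its 2 cyclins passed 2-fold, whereas in the D-type step the kinase passed and the cyclins did not.

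Of the 7 members that act from S phase to mitosis, 5 were at least 2-fold lower, beside 9.50% of protein-coding symbols. All 7 ratios lay below 0, as did 55.8% of protein-coding symbols. CDK1, the kinase of mitotic entry, stood at 37.3 RPKM with MA4-022-1 and 183 RPKM in vehicle, 4.80-fold lower, with an interval from -2.35 to -2.18 (hg19 chromosome 10, 62538089 to 62555251). CCNA2, the S and G2 cyclin, was 4.91-fold lower at 2.67 against 17.02 RPKM (hg19 chromosome 4, 122722472 to 122745087). CDK1 was the second most abundant cell cycle kinase after CDK4 in both libraries. The mitotic cyclin CCNB2 was 2.99-fold lower at 11.2 against 35.4 RPKM, and CCNB1 2.03-fold lower at 51.3 against 105 RPKM. The interval of CCNB1, from -1.09 to -0.95, spans the 2-fold mark. CDK1 stood 2.38 times above CDK2 with MA4-022-1 and 4.37 times in vehicle, and CCNB1 4.59 times above CCNB2 with MA4-022-1 and 2.97 times in vehicle. The CKS proteins, small adaptors that dock CDKs to phosphorylated substrates, stood at 12.1 against 26.5 RPKM for CKS1B, 2.10-fold lower, and at 190 against 313 RPKM for CKS2, within 2-fold. The interval of CKS1B, from -1.34 to -0.82, also spans the 2-fold mark. CCNF, cyclin F, which serves a ubiquitin ligase and binds no CDK, was at 3.52 against 4.64 RPKM.

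CDC25 phosphatases, which remove the inhibitory phosphates from CDKs, went apart. CDC25A, which acts from G1/S onwards, had the lowest ratio of all members, at 0.936 RPKM or an estimated 66 reads with MA4-022-1 and 8.93 RPKM or 843 reads in vehicle, 5.13-fold lower. CDC25C, which acts on CDK1 at mitotic entry, was 3.51-fold lower at 2.11 against 9.92 RPKM. CDC25B, the third of them, was at 4.39 against 4.13 RPKM, and its share of the summed CDC25 level was 59.0% with MA4-022-1 and 18.0% in vehicle. CDKN3, a phosphatase that removes the activating phosphate of CDK2, was at 67.5 against 106 RPKM, within 2-fold.

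**Figure D3:**
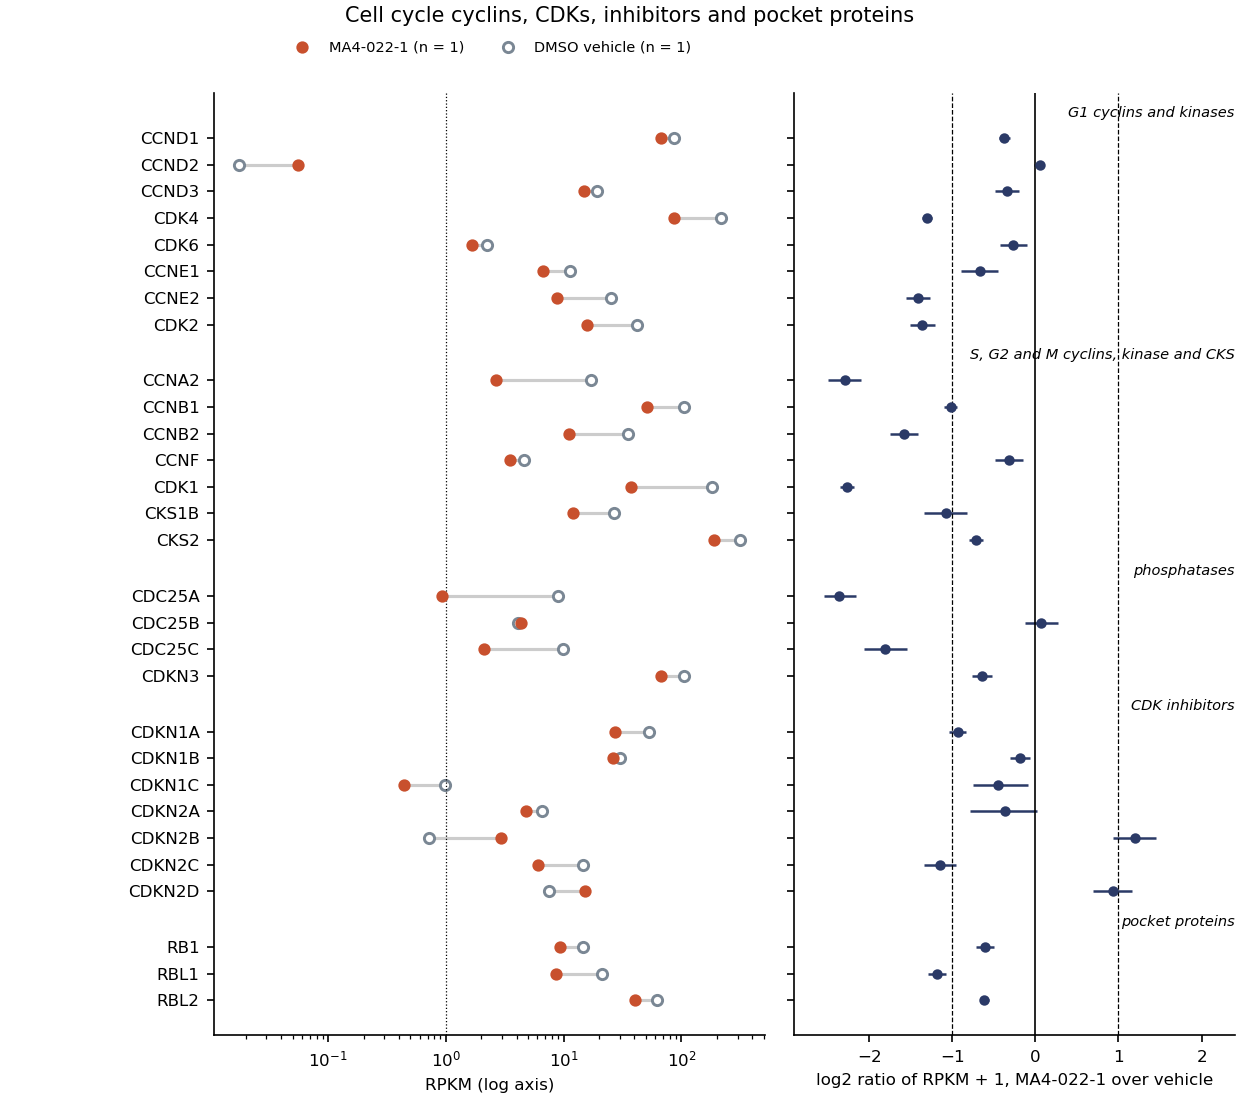
Left, RPKM (log axis) of the 29 cell cycle members with MA4-022-1 (filled) and in vehicle (open), 1 library each, with a dotted line at 1 RPKM. Right, the log2 ratio with its 95% counting interval and dashed lines at 2-fold. CDC25A, CCNA2 and CDK1 lie farthest left, and CDKN2B alone lies right of the upper line.

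The CDK inhibitors did not move as one. Of the INK4 proteins, which bind CDK4 and CDK6, CDKN2B, or p15, stood at 2.96 RPKM with MA4-022-1 and 0.721 RPKM in vehicle, a log2 ratio of 1.202 with an interval from 0.93 to 1.45. CDKN2D, or p19, was 1.90-fold higher at 15.2 against 7.52 RPKM, and CDKN2C, or p18, 2.22-fold lower at 6.03 against 14.6 RPKM. The interval of CDKN2C, from -1.34 to -0.96, spans the 2-fold mark. CDKN2A was at 4.82 against 6.52 RPKM, with an interval that includes 0. CDKN2A and CDKN2B share 1 deposited locus on chromosome 9, 21802542 to 22121096, and reads could be split between overlapping features there. The 4 INK4 genes thus summed to 29.02 RPKM with MA4-022-1 and 29.38 RPKM in vehicle, with CDKN2C leading in vehicle and CDKN2D with MA4-022-1. Relative to the summed level of CDK4 and CDK6, 88.7 against 219 RPKM, INK4 RNA stood at 32.7% with MA4-022-1 and 13.4% in vehicle.

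CIP/KIP inhibitors, which bind CDK2 and CDK1 complexes, were not higher. CDKN1A, or p21, the p53 target, was 1.91-fold lower at 27.1 RPKM with MA4-022-1 and 52.7 RPKM in vehicle, with an interval from -1.03 to -0.83. CDKN1B, or p27, was at 26.3 against 30.1 RPKM and CDKN1C, or p57, under 1 RPKM in both libraries. CDKN1A and CDKN1B were thus at nearly equal levels with MA4-022-1, whereas CDKN1A led in vehicle. The 3 genes summed to 53.9 against 83.7 RPKM, while CDK1 and CDK2 together stood at 53.0 against 225 RPKM. CIP/KIP RNA was 1.02 times that of the 2 kinases with MA4-022-1 and 0.373 times in vehicle, although no CIP/KIP gene was itself higher.

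Of the 3 pocket proteins, which hold E2F factors and repress cell cycle genes, 1 was at least 2-fold lower, beside 9.50% of protein-coding symbols. RBL1, or p107, which is itself an E2F target, was 2.27-fold lower at 8.70 against 21.0 RPKM. RB1 stood at 9.24 against 14.6 RPKM and RBL2, or p130, at 40.2 against 62.1 RPKM, with ratios of -0.60 and -0.61 that stayed within 2-fold. RBL2 was the most abundant pocket protein in both libraries, with 69.2% of their summed RPKM under MA4-022-1 and 63.6% in vehicle.

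**Figure D4:**
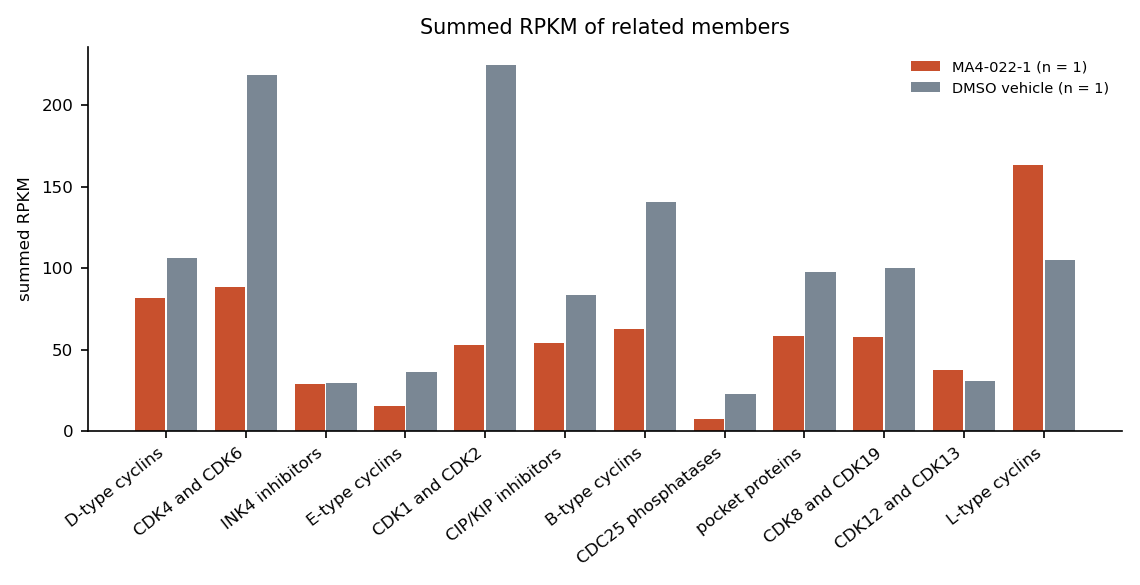
Summed RPKM (y axis) of related members with MA4-022-1 (left bars) and in vehicle (right bars), 1 library each. The bars of CDK4 with CDK6 and of CDK1 with CDK2 are lower with MA4-022-1, the INK4 bars are nearly level at 29.02 and 29.38 RPKM, and the L-type cyclins are higher with MA4-022-1.

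Among transcriptional members, CDK7 and CCNH belong to the CDK-activating kinase, which also phosphorylates RNA polymerase II as part of TFIIH, and both stayed within 2-fold. CDK7 was at 45.1 RPKM with MA4-022-1 and 71.9 RPKM in vehicle, and its cyclin CCNH at 126 against 169 RPKM. MNAT1, the assembly factor, shared a row with SLC38A6, at 63.4 against 91.6 RPKM, so its own value is not known. The log2 ratios of CDK7 and CCNH were -0.66 and -0.42.

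The Mediator kinases and their cyclin went apart. CDK19 stood at 34.0 RPKM with MA4-022-1 and 69.0 RPKM in vehicle, a log2 ratio of -1.002 that lies on the 2-fold mark. Its interval, from -1.05 to -0.95, spans the mark, and with the median of expressed genes set to 0 the ratio was -0.98. Its paralog CDK8 was at 23.5 against 30.8 RPKM. CCNC, cyclin C, which activates both, was 1.59-fold higher at 136 against 85.2 RPKM. Cyclin C RNA was therefore 2.36 times that of the 2 kinases with MA4-022-1 and 0.854 times in vehicle.

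Members of the cyclin K group, which acts in transcript elongation, stayed near their vehicle levels. CDK12, which phosphorylates the polymerase tail and sustains long DNA repair genes, was at 22.7 against 16.9 RPKM. CDK13, its paralog, stood at 14.8 against 14.0 RPKM, with an interval that includes 0 and a sign that turned with summed RPKM set equal (-0.05), and CCNK at 79.4 against 67.2 RPKM. The L-type cyclins, which partner CDK11 in splicing, stayed within 2-fold: CCNL2 was 1.86-fold higher at 73.2 against 38.9 RPKM, and CCNL1 was at 90.3 against 66.0 RPKM. CCNL2 had the highest ratio of the 23 transcriptional and other members, at 0.90 with an interval from 0.81 to 0.98. CDK11B was at 11.5 against 17.2 RPKM, while the row that joins CDK11A with SLC35E2 stood at 32.4 against 19.1 RPKM. CDK11A and CDK11B are near-identical neighbours, so reads could be split between them and the opposite signs are uncertain.

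Of the 10 other members, the 9 with a row of their own stayed within 2-fold. Among protein-coding symbols, 9.50% were at least 2-fold lower and 4.12% higher. CCNG1, cyclin G1, a p53 target, was the most abundant of all with a row of its own, at 375 against 381 RPKM, and CCNG2, which is linked to quiescence, stood at 42.2 against 48.1 RPKM. CCNI was at 145 against 182 RPKM, and CCNY, which activates CDK14 and CDK16 at the membrane, at 26.0 against 36.6 RPKM. CDK5, best known in neurons, was at 24.1 against 32.1 RPKM. CDK10 was at 43.9 against 39.7 RPKM, CDK16 at 85.3 against 92.1 RPKM and CDK17 at 15.7 against 17.1 RPKM. The log2 ratios of CDK10, CDK16 and CDK17 lay between -0.12 and 0.14, and those of CDK16 and CDK17 turned to 0.039 and 0.028 with the median of housekeeping controls at 0. CDK18 was low, at 0.682 RPKM or an estimated 26 reads against 1.53 RPKM or 79 reads. CDK14 was read in a row joined with CLDN12 and GTPBP10, at 128 against 117 RPKM, which cannot be assigned to it.

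**Figure D5:**
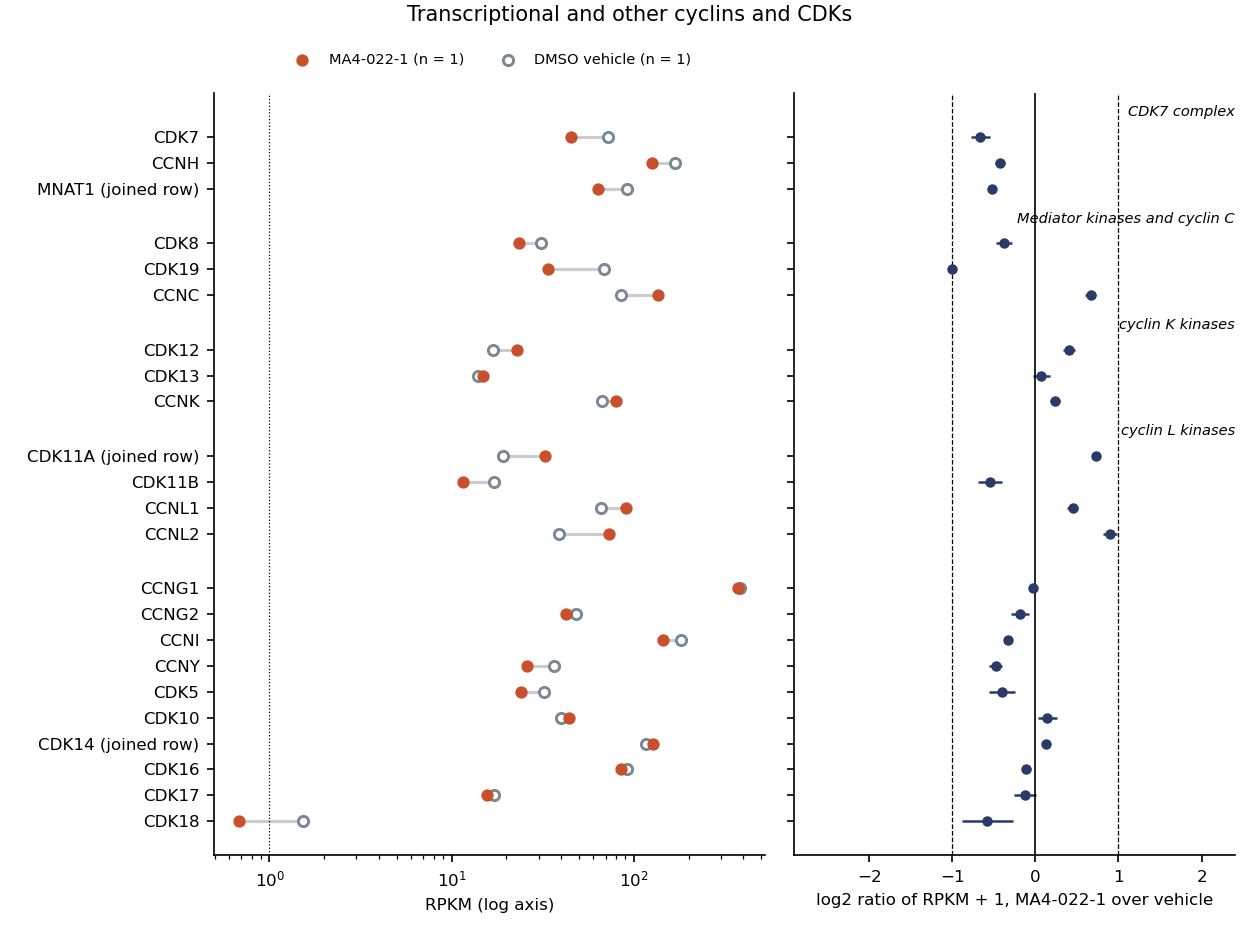
Left, RPKM (log axis) of the 23 transcriptional and other members with MA4-022-1 (filled) and in vehicle (open), 1 library each, with a dotted line at 1 RPKM. Right, the log2 ratio with its 95% counting interval, absent for joined rows, and dashed lines at 2-fold. CDK19 lies on the lower line and no member passes the upper one.

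Regulators and partners of these proteins, a list of 51 genes, gave 10 that were lower and 1 that was higher by 2-fold or more, beside 9.57% and 7.73% of expressed genes, with a median log2 ratio of -0.16 over the 47 that passed the filter. Kinases that place the inhibitory phosphates on CDKs were among the lowest: WEE1 was at 3.76 RPKM with MA4-022-1 and 22.4 RPKM in vehicle, and PKMYT1 at 5.67 against 29.5 RPKM. The enzymes that add these phosphates and 2 of the 3 phosphatases that remove them were thus lower together. In the MuvB complex, which joins pocket proteins or MYBL2 at the CHR, LIN9 was 3.62-fold lower at 2.57 against 11.9 RPKM, MYBL2 stood at 1.17 against 12.8 RPKM, and LIN54, chosen after its value was seen, at 7.16 against 17.1 RPKM. Of the other subunits on the list, LIN52 and RBBP4 stayed within 2-fold, with LIN52 at 16.6 against 16.9 RPKM and RBBP4 at 98.2 against 154 RPKM, and LIN37 was read only in a row joined with AC002398.9 and PSENEN. Of regulators of cyclin destruction, FBXO5, an inhibitor of the anaphase-promoting complex, was 2.82-fold lower, and USP37, which removes ubiquitin from cyclin A, 2.48-fold lower. Most other regulators of this kind on the list stayed within 2-fold, with ratios on both sides of 0. ECT2, an exchange factor of cytokinesis, was 2.95-fold lower, and the 2 rows that join CDCA3 with U47924.25 were together 5.95-fold lower. CDC20, an activator of the anaphase-promoting complex, was also lower, at 8.92 against 20.6 RPKM. HEXIM1, which inhibits the elongation kinase P-TEFb, was the higher gene, at 26.3 against 9.49 RPKM over 2 rows.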

How the data were processed

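Per the labels' protocols, ribosomal RNA was removed from total RNA of C4-2B cells before ScriptSeq libraries were prepared and sequenced as single 50 bp reads. The tools named are Cufflinks 2.2.1 and TopHat2 2.0.13 and the build is hg19, per the submitters' processing notes. What the authors deposited is 1 table per library with a locus, a symbol and the RPKM, per the file headers. RPKM are not counts, so no count test was run.

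Each table held 62271 rows. Rows without a symbol, 2751 in all with 23.3% of the summed RPKM with MA4-022-1 and 29.6% in vehicle, and short RNAs were left out. The values of a symbol with several rows were added up, as for 5 members, and 3 members stood in rows joined with other symbols. Members and lists were chosen with earlier results of these data known. Named genes were all members and, from the list of regulators, those past 2-fold that reached 5 RPKM in either library, up to the 8 largest ratios in each direction. LIN54 and CDC20, the remaining genes past 2-fold, and LIN52, LIN37 and RBBP4 were added after their values were seen. Loci start 1 base later here than in the tables, which count from 0.

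Totals came from processed pseudogenes of 600 to 6000 nt with a locus of their own, where 154 of 155 low values with MA4-022-1 and 203 of 204 in vehicle lay within 2% of whole reads. Reads of members were estimated from the median length of their GENCODE release 29 basic coding transcripts, so they are approximate. That release is of another build and gave lengths, gene types and strands only. Intervals hold counting error only, PCR duplicates included. The fit of the totals and the recovery of 2-fold calls were tested on simulated data. The intervals and the read estimates of members were not. Software was scipy 1.17.1, pandas 2.3.3, numpy 2.4.6 and matplotlib 3.10.9 under Python 3.11.15. Alternatives were other pseudocounts, filters, scalings, row rules and thresholds.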

Additional observations from a re-analysis of the deposited data

How the results depend on the processing

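No paired analysis was possible because each group held 1 library. Of 14 members past 2-fold, 8 stayed past it under every other pseudocount, filter, scaling and row rule that gave them a value. The other members past 2-fold lost the call under a pseudocount of 5 RPKM, and of these CCNB1 (-0.87), CKS1B (-0.93) and CDK19 (-0.85) also with the median of housekeeping controls at 0, which raised the median of expressed genes by 0.15. CDKN2D (1.08) and CCNL2 (1.04) then passed 2-fold, CDKN1A (-1.06) did so with summed RPKM set equal, which moved that median by -0.11, and CDKN2D (1.01) and CDK18 (-1.06) with a pseudocount of 0.1. Cell cycle members at least 2-fold lower numbered 4 at a 3-fold threshold. Those at least 2-fold higher numbered 2 with a pseudocount of 0.1, with housekeeping controls at 0 and at 1.5-fold, and 0 with a pseudocount of 5, a filter of 5 RPKM or 3-fold. Their median log2 ratio was -1.02 with a filter of 5 RPKM and -0.57 with housekeeping controls at 0.

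Transcriptional and other members at least 2-fold lower numbered 2 with a pseudocount of 0.1, 3 at 1.5-fold, and 0 with a pseudocount of 5, the median of expressed genes or housekeeping controls at 0, and 3-fold. Those higher numbered 1 with housekeeping controls at 0 and 3 at 1.5-fold, and their median turned to 0.028 with housekeeping controls at 0. Over all expressed genes, 1194 were higher and 1478 lower, against 1649 and 1087 with housekeeping controls at 0. Higher genes numbered 1956 with a pseudocount of 0.1, 441 with 5, 744 with a filter of 5 RPKM, 2906 at 1.5-fold and 377 at 3-fold, and lower genes 661 with a pseudocount of 5, 3190 at 1.5-fold and 513 at 3-fold. The cause of the other shifts was not tested.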

Other observations

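Rows of a chromosome ran through its positions 2 times, and the first pass held symbols annotated on the plus strand and the second those on the minus strand. Of 16871 rows with a protein-coding symbol on 23 chromosomes, 16155 or 95.8% lay in the pass of their annotated strand. Of the 57 rows of the members, 4 lay in the other pass. RBL1 had such a row at 0.379 RPKM with MA4-022-1 and 1.45 RPKM in vehicle, CCNK at 2.01 against 0.907 RPKM and CCNL1 at 1.47 against 3.23 RPKM, and CKS1B one at 0 in both libraries at a locus on chromosome 5 while the gene's own row lies on chromosome 1. With own-strand rows alone, an alternative chosen after seeing the data, no member gained or lost a 2-fold call. HEXIM1 also had a row in each pass.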
